A study of Mus musculus with 2 samples.

Results

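Integrins, the cell surface receptors that tie a cell to its matrix, and laminins, the trimeric proteins of the basement membrane that many integrins bind, were compared between hearts with and without Med1 in cardiomyocytes. The members are all genes whose symbol starts with Itga or Itgb, without the integrin-binding proteins that carry bp in their symbol, and all genes named Lama, Lamb or Lamc with a number. The files list 39 such genes among 22882 symbols, which are 18 alpha subunits, 9 beta subunits, Itgbl1 and 11 laminin chains, and each stands on 1 row. The heart RNA came from 23 day old mice on the C57BL6/J background, of both sexes. One library was made from the pooled RNA of 5 Med1fl/fl mice, whose Med1 alleles carry loxP sites, and one from that of 5 csMed1-/- mice, which have the same alleles and a Cre transgene driven by the α-MyHC promoter, active in cardiomyocytes. There are therefore no replicates and no test between genotypes was made. Cre is described for the csMed1-/- mice only, so an effect of Cre itself and that of losing Med1 cannot be told apart here, and cells of the heart other than cardiomyocytes are not targeted.

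An integrin is a pair of 1 alpha and 1 beta subunit, and the pairing decides the ligand. Fibronectin and vitronectin are bound through the peptide motif RGD, laminin through another group of pairs, and collagen through a further one. Inside the cell the beta tail recruits talin, kindlin and integrin-linked kinase, which join the receptor to actin. In the heart these contacts, set at the Z-disc level of the sarcolemma, carry force between the cardiomyocyte and its basement membrane.

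Values are FPKM, fragments per kilobase of transcript scaled to the mapped fragments of the library, so levels can be compared between genes per length. Low values come in steps of single reads, and by the size of these steps csMed1-/- heart was sequenced 1.39 times as deeply as Med1fl/fl heart if values were scaled to mapped fragments alone. The absolute depth is unknown. Med1 itself had 3.38 FPKM in Med1fl/fl and 0.412 FPKM in csMed1-/- heart (ratio 0.122). Of the cardiomyocyte markers, Myl2 was at 20467 and 6571 FPKM, so both libraries hold the labelled tissue, and Actc1 was listed at 0 in Med1fl/fl but at 9189 FPKM in csMed1-/-, so a listed 0 can be a failed estimate.

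A gene was compared if neither library listed it at 0 and if its larger value reached 1 FPKM, and a difference was counted past 2-fold. Of the 39 members 23 met this. Of these 10 were higher in csMed1-/- heart and 2 were lower, against a background of 13.6% of all 10489 genes compared that were higher and 18.0% that were lower (31.5% together). Past 4-fold 4 members were higher and 1 was lower, where 4.32% and 5.14% of all genes were. Of 14 integrin genes compared 8 were higher and 1 lower, with a median log2 ratio of 1.15, or 0.040 when integrin genes under 1 FPKM in both libraries were included. This median was 0.78 when 1 FPKM was required in both libraries and 0.87 when ratios were centred within bins of transcript GC content. Of 9 laminin genes 2 were higher, 1 lower and 6 within 2-fold, with a median of 0.16, which turned to -0.090 when ratios were centred within bins of transcript GC content, and all genes compared had a median of -0.07. Of the 10 higher members 5 reached 1 FPKM only in the csMed1-/- library and had to be higher to be counted. Among the 17 members at 1 FPKM or more in both libraries, 5 were higher and 2 lower, where 11.3% and 14.7% of all 9160 such genes were.

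**Figure D1:**
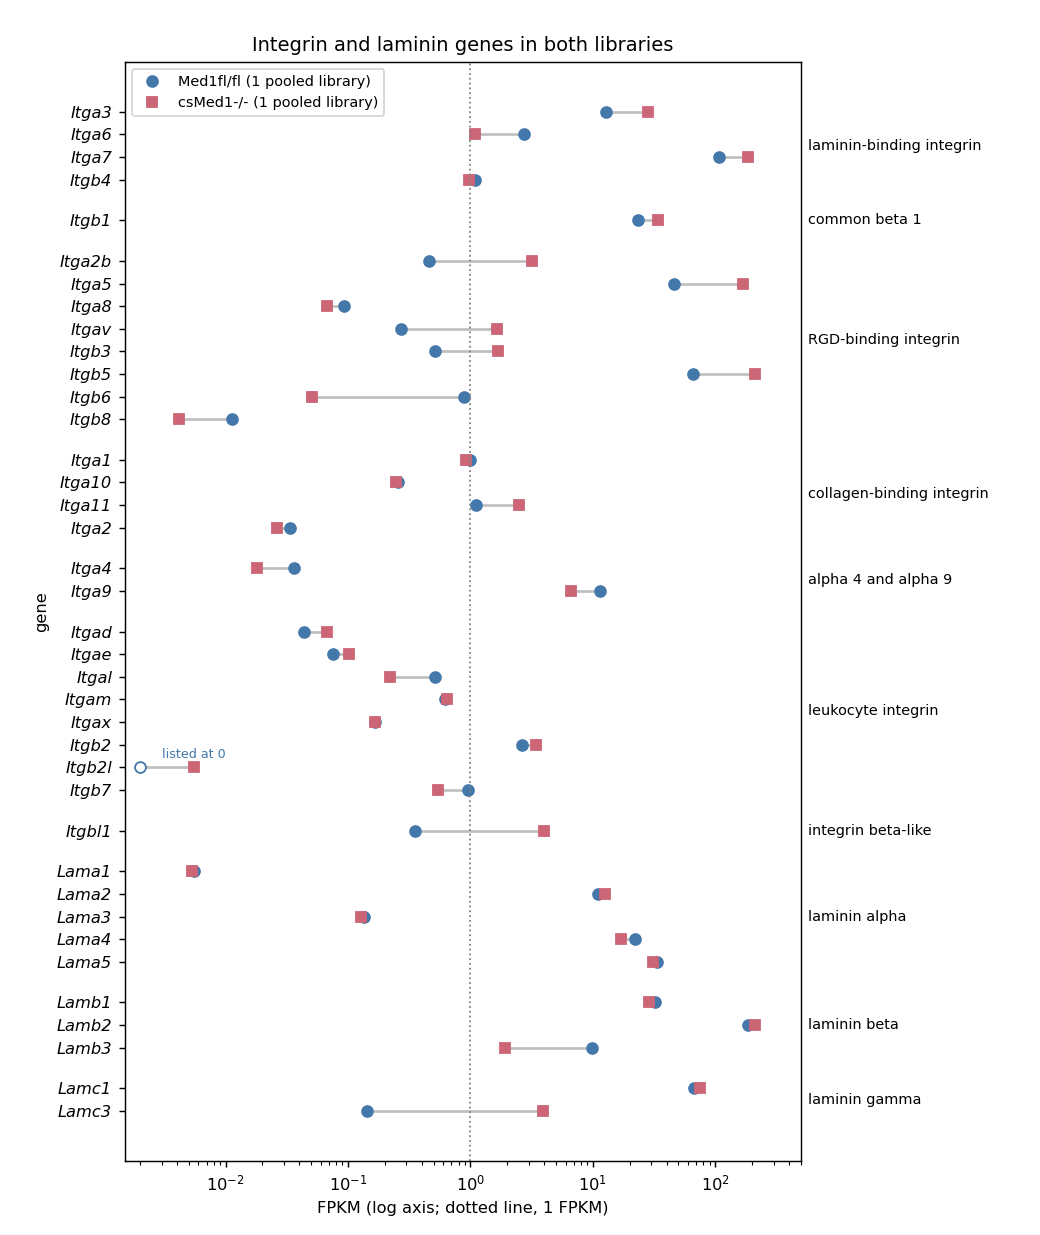
FPKM of the members, each on its own line, on a log axis, in the Med1fl/fl library (circles) and the csMed1-/- library (squares), grouped by ligand or chain type; grey lines join both values of a gene and the dotted line marks 1 FPKM. Itga5 and Itgb5 lie far to the right in csMed1-/- heart, the main laminin chains Lama2, Lama5, Lamb1, Lamb2 and Lamc1 lie in nearly the same place in both libraries, and Itgb2l is listed at 0 in Med1fl/fl and is drawn as an open circle at the edge.

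The stretches of genome around the start sites of 4 members are shown. Itga5 and Itgb5 are the most abundant RGD receptor subunits, Itgav is the member also assayed by qPCR, and Lamb3 is the laminin chain with the lowest ratio. They run from 250 bases before to 50 bases after the start, are taken from RefSeq on build GRCm38.p6 (mm10), and are written 5′ to 3′ on the strand of the gene. Capitals mark the GC box, GGGCGG on either strand, which Sp family factors bind.
Itga5 promoter (chr15:103366742-103367041, - strand): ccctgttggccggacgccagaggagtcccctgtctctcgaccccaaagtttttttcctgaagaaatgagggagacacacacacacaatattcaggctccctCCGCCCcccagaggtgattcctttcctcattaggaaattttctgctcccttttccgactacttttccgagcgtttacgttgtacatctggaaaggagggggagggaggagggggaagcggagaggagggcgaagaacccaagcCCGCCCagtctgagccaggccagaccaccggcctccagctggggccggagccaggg
Itgb5 promoter (chr16:33829415-33829714, + strand): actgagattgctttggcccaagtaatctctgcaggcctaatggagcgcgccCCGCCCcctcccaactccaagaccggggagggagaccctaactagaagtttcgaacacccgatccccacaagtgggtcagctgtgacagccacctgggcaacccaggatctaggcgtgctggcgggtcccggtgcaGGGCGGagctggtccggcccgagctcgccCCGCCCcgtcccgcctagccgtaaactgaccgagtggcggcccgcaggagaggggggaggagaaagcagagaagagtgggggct
Itgav promoter (chr2:83724147-83724446, + strand): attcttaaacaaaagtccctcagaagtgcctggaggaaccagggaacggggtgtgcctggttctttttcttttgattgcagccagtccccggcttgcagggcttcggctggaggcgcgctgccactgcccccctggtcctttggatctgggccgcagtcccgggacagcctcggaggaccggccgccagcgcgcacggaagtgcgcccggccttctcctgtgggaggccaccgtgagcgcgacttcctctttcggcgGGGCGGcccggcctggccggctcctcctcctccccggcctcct
Lamb3 promoter (chr1:193301744-193302043, + strand): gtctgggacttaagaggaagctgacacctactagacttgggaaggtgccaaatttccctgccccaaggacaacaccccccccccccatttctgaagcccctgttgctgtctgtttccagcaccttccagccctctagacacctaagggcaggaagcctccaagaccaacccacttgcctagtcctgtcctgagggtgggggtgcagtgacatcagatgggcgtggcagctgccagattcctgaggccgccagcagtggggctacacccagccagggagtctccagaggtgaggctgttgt

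The Itga5 stretch holds 2 GC boxes, that of Itgb5 holds 3 and that of Itgav holds 1, while that of Lamb3 holds none. A GC box was found in 35.7% of 32851 such stretches of all genes. The other motifs searched on both strands were TGANTCA (AP-1, in 7.81% of all stretches), CATTCC (TEAD, 14.7%), TATAAA (13.6%) and the CArG box (1.63%), and none of these is in the 4 stretches. RefSeq lists a further start of Lamb3, whose stretch holds 1 CATTCC. Both Lamb3 stretches lie inside the GENCODE span of the gene, which begins at 193207699 on chromosome 1, and not at its first base. Entries were used for 25 of the 39 members. Of the 10 members higher past 2-fold 7 had an entry and 5 a GC box, and of the 11 members within 2-fold 6 had an entry and 4 a GC box. A match says only that these letters are present.

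The qPCR primers for Itgav, from the study's primer list, show which part of the transcript that assay reads.
Itgav forward primer (chr2:83761878-83761897, + strand): tgctgatggccagggatttt
Itgav reverse primer (chr2:83765811-83765833, - strand): tgatgctgtagacatttgggtca

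Both match the longest coding transcript of Itgav in GENCODE M21 once each, the forward primer in exon 5 and the reverse primer in exon 7 of 30 exons. They lie far from the last exon. The FPKM values below are for the whole gene and do not separate isoforms of any member.

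The receptors for fibronectin and vitronectin are described first. Apart from Itgb1, which pairs across ligand classes and is described on its own, 8 subunits take part in RGD-binding pairs. Of these 8, 5 were compared and each of the 5 was higher past 2-fold in csMed1-/- heart, though 3 of these passed the limit through that library alone. Among all genes compared 13.6% were higher. Only Itga5 and Itgb5 were at 1 FPKM or more in both libraries, where 11.3% of all such genes were higher. Itgb1 stayed within 2-fold. Itga5, whose product pairs with that of Itgb1 as the main fibronectin receptor, lies on chromosome 15 from 103344286 to 103366763 (minus strand, GENCODE M21). It had 46.3 FPKM in Med1fl/fl and 169.8 FPKM in csMed1-/- heart, 3.67 times as much. Itgb5 (chromosome 16, 33829665 to 33949338), a vitronectin receptor subunit, had 66.3 and 212.5 FPKM, a ratio of 3.21. Among those 8 subunits Itga5 and Itgb5 alone were above 5 FPKM, and they were among the 5 highest members in both libraries.

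The other RGD-binding subunits were low. Itgav (chromosome 2, 83724397 to 83806916), the alpha partner shared by several beta subunits and a receptor for latent TGF-beta, had 0.270 and 1.64 FPKM, a ratio of 6.08. Itgb3, its partner in the vitronectin receptor of vessels and platelets, had 0.517 and 1.67 FPKM, a ratio of 3.24. Itga2b, the platelet fibrinogen receptor subunit, had 0.456 and 3.17 FPKM, a ratio of 6.94. All 3 crossed 1 FPKM only in the csMed1-/- library. Adding 1 FPKM to both values lowers such ratios, and brought the log2 ratio of Itgb3 from 1.70 to 0.82, inside 2-fold, that of Itgav from 2.60 to 1.06 and that of Itga2b from 2.80 to 1.52.

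The platelet markers differed unevenly beside Itga2b. Pf4 had 28.4 and 31.1 FPKM, Ppbp 0.288 and 1.18 FPKM, and Gp9 0.240 and 4.83 FPKM. The summed level of these 3 genes was 28.9 FPKM in Med1fl/fl and 37.1 FPKM in csMed1-/- heart, with none at 0. Ppbp and Gp9 were higher past 2-fold but reached 1 FPKM only in the csMed1-/- library, while Pf4, the one marker at 1 FPKM or more in both, had a ratio of 1.10. Their part in the value of Itga2b was not tested. In bulk tissue a change in the number of cells of a type and a change of RNA per cell cannot be told apart, which holds for every value here.

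Itgb6, chosen for mention after its values were seen, went the other way. This partner of the Itgav product in epithelia had 0.890 FPKM in Med1fl/fl and 0.0505 FPKM in csMed1-/- heart, which is 17.6-fold lower, but it missed the 1 FPKM limit. Itga8 had 0.0932 and 0.0673 FPKM, and Itgb8 had 0.0113 and 0.00413 FPKM. The 3 RGD-binding members that stayed below the limit thus had the lower value in csMed1-/- heart, within 2-fold for Itga8 and past it for the others. None that rose past 1 FPKM in csMed1-/- heart can be among them. By the read steps equal numbers of reads give a ratio of 0.721, and Itga8 had 0.722. Itgb8 had the lowest value of all members in csMed1-/- heart.

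Laminin receptors did not share a direction. Itga7 (chromosome 10, 128933818 to 128958282), whose product pairs with that of Itgb1 as the laminin receptor of striated muscle, was the highest alpha subunit in both libraries. It had 108 FPKM in Med1fl/fl and 185.8 FPKM in csMed1-/- heart, 1.72 times as much and so within 2-fold. Itga3, another laminin receptor subunit, had 12.9 and 28.0 FPKM, a ratio of 2.17, whose log2 of 1.12 became 0.86 after centring within GC bins. Itga6, a laminin receptor subunit of endothelium and epithelia, had 2.73 and 1.08 FPKM, a ratio of 0.397, and with a pseudocount of 1 FPKM its log2 ratio went from -1.33 to -0.84. Itgb4, its partner in epithelial hemidesmosomes, had 1.09 and 0.975 FPKM, a ratio of 0.894. Among these 4 laminin receptor subunits 1 was thus higher and 1 lower past 2-fold, where 13.6% and 18.0% of all genes compared were.

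Endothelial markers were measured beside Itga6. Of 9 markers 3 were lower past 2-fold (Kdr, Tek and Emcn) and 1 was higher (Vwf), with a median log2 ratio of -0.48. Among all genes compared 18.0% were lower and 13.6% higher. The summed level of these markers was 638 FPKM in Med1fl/fl and 572 FPKM in csMed1-/- heart, with none at 0. The epithelial markers Epcam, Krt5 and Krt14 were at or near 0 in both libraries, where none exceeded 0.00806 FPKM. Of the other epithelial and mesothelial markers Wt1 had 1.19 and 1.86 FPKM, Krt18 0.318 and 0.890 FPKM and Msln 0.0263 and 0.20 FPKM, with the higher value in csMed1-/- heart, and Krt8 had 0.117 and 0.0485 FPKM. The part of the endothelial cells in the value of Itga6 was not tested.

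The shared subunit Itgb1 was at 23.2 FPKM in Med1fl/fl heart and at 33.8 FPKM in csMed1-/- heart, with a ratio of 1.45. Its change stayed within 2-fold while the alpha subunits that pair with its product differed in both directions. Itga9, a receptor subunit for tenascin-C and VCAM-1, had 11.4 and 6.57 FPKM, a ratio of 0.574. The related Itga4 was at 0.0358 and 0.0180 FPKM.

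Collagen receptors were expressed weakly. Itga11, found on fibroblasts and myofibroblasts, was the only one of 4 that passed the limit, with 1.11 and 2.49 FPKM and a ratio of 2.26. Itga1, the collagen receptor subunit of smooth muscle and vessels, had 0.985 and 0.921 FPKM, Itga10 had 0.255 and 0.246 FPKM, and Itga2 had 0.0336 and 0.0264 FPKM. Itga11 alone thus differed past 2-fold, and with a pseudocount of 1 FPKM its log2 ratio fell from 1.17 to 0.73.

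Itgbl1 (chromosome 14, 123659971 to 123975618) encodes a secreted protein built of repeats like those in the stalk of a beta subunit, and is not itself a receptor. It had 0.349 FPKM in Med1fl/fl and 4.0 FPKM in csMed1-/- heart, and its ratio of 11.5 was the largest among the integrin symbols compared. It reached 1 FPKM only in the csMed1-/- library, and a pseudocount of 1 FPKM lowered its log2 ratio from 3.52 to 1.89, near the 1.85 of Itga5 on that scale. Fibroblast markers beside Itga11 and Itgbl1 were split. Col1a1, Col1a2 and Tcf21 were higher past 2-fold and Lum and Dpt lower, among 7 compared. Among all genes compared 13.6% were higher and 18.0% lower. The summed level of all 8 markers was 404 and 959 FPKM, with no marker at 0. Col1a1 and Col1a2 made up 225 and 816 FPKM of this, and the other 6 markers summed to 179 and 143 FPKM, in the opposite direction. Pdgfra had 4.09 and 4.03 FPKM. Their part in these values was not tested.

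Leukocyte integrins were low in both libraries. Itgb2, the beta subunit shared by the leukocyte receptors, had 2.63 FPKM in Med1fl/fl and 3.43 FPKM in csMed1-/- heart (ratio 1.31) and was the only one of 8 that passed the limit. Itgam, of macrophages and neutrophils, had 0.621 and 0.638 FPKM, and Itgax, of dendritic cells, had 0.165 and 0.166 FPKM, so both were nearly equal. Itgal, of lymphocytes, had 0.515 and 0.220 FPKM, and Itgb7 had 0.959 and 0.546 FPKM. The rest, Itgae, Itgad and Itgb2l, had at most 0.101 FPKM, with Itgb2l listed at 0 in Med1fl/fl. The summed level of 11 leukocyte markers was 232 and 227 FPKM, with none at 0. Of 8 compared 2 (Cd14 and S100a8) were higher past 2-fold and none lower, where 13.6% and 18.0% of all genes compared were. Exons of Itgad overlap those of Cox6a2 on the other strand, which had 6967 and 3016 FPKM, and whether the counting used strand is not given in the sources used here.

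**Figure D2:**
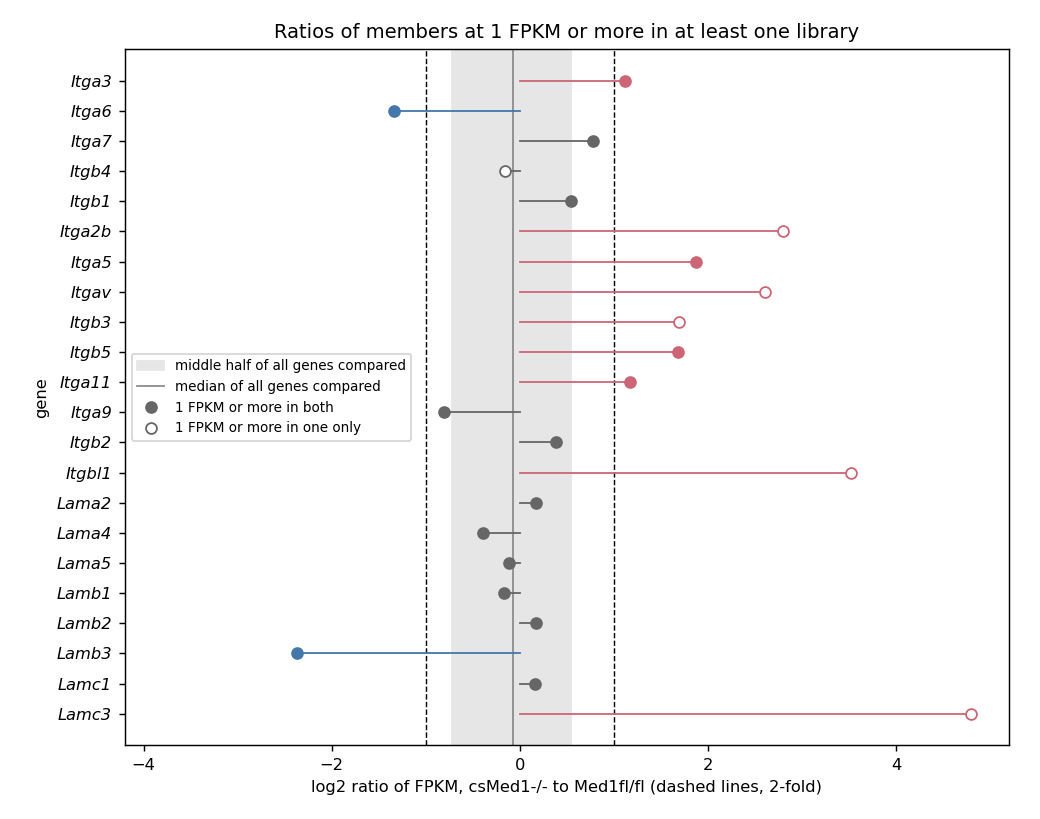
Log2 ratio of csMed1-/- to Med1fl/fl FPKM for members that were compared (1 value per gene, no replicates); filled points reached 1 FPKM in both libraries, open points in one only, the grey band runs between the quartiles of all genes compared (-0.72 to 0.55) and dashed lines mark 2-fold. The 5 RGD-binding subunits from Itga2b to Itgb5 lie to the right of the 2-fold line, most laminin chains lie inside the band, and Lamb3 and Lamc3 lie at opposite ends. Itga2b, Itgav and Itgb3 are open points that reached 1 FPKM only in the csMed1-/- library. Of all genes compared 13.6% were higher past 2-fold.

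Laminin chains of the muscle and vessel basement membrane differed little between the libraries. A laminin joins 1 alpha, 1 beta and 1 gamma chain. Lama5, of vessel walls, had 33.7 FPKM in Med1fl/fl and 31.1 FPKM in csMed1-/- heart. Lama4, also of vessels, had 22.1 and 16.9 FPKM, and Lama2, the alpha chain of the muscle fibre's basement membrane, had 11.1 and 12.5 FPKM. The ratios of these alpha chains lay between 0.764 and 1.12. Lamb2, the most abundant chain, had 186.2 and 209.8 FPKM, and Lamb1 had 32.2 and 28.7 FPKM. Lamc1, the gamma chain common to most laminins, had 67.6 and 75.5 FPKM. All 6 chains stayed within 2-fold.

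Other chains stood apart from these. Lamb3 (chromosome 1, 193207699 to 193343878), a beta chain known from the basement membrane of skin, had 9.91 FPKM in Med1fl/fl and 1.92 FPKM in csMed1-/- heart (ratio 0.194). Lama3, an alpha chain of the same tissue, was at 0.134 and 0.128 FPKM. Lamc3 (chromosome 2, 31887291 to 31946539), a gamma chain known from retina and brain, had 0.142 and 3.93 FPKM, a ratio of 27.7, the largest of all members compared. It too reached 1 FPKM only in the csMed1-/- library, and a pseudocount of 1 FPKM lowered its log2 ratio from 4.79 to 2.11. Lama1, of early embryonic basement membranes, was at 0.00550 and 0.00530 FPKM.

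The 16 members below 1 FPKM in both libraries had at most 0.985 FPKM in Med1fl/fl and 0.921 FPKM in csMed1-/- heart. Of those above 0 in both, 12 were within 2-fold, 3 were lower past it (Itgal, Itgb6 and Itgb8) and 0 were higher. Members that rose past 1 FPKM in csMed1-/- heart cannot be among them. By the read steps a gene with the same number of reads in both libraries would show a ratio of 0.721, and Itga8 had 0.722.

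Within each library the genes can be set against one another as shares of a summed level. The FPKM of all 18 alpha subunits summed to 185.9 in Med1fl/fl and to 401.0 in csMed1-/- heart, a ratio of 2.16. Itga7 held 58.1% of the alpha sum in Med1fl/fl and 46.3% in csMed1-/-, and Itga5 24.9% and 42.3%, so the fibronectin receptor subunit came from 0.428 to 0.914 of the level of the laminin receptor subunit. The 9 beta subunits summed to 95.6 and 252.9 FPKM, of which Itgb5 held 69.3% and 84.0% and Itgb1 24.3% and 13.4%. The laminin alpha chains summed to 67.1 and 60.7 FPKM, and the laminin beta chains to 228.3 and 240.4 FPKM. Lama5 held 50.3% and 51.3% of the alpha chain sum, and Lamb2 held 81.5% and 87.3% of the beta chain sum.

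**Figure D3:**
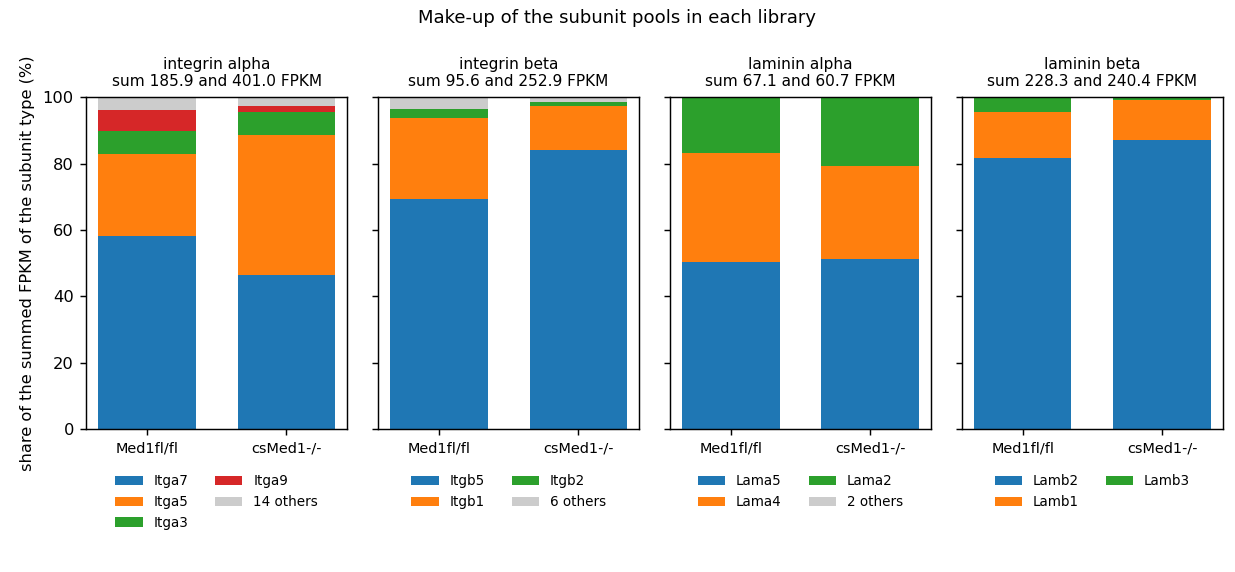
Share of the summed FPKM of each subunit type held by its genes (stacked bars from 0 to 100%), in the Med1fl/fl and csMed1-/- libraries; genes under 2% in both are drawn together as others, and the sums stand above each panel. Itga5 takes 24.9% and 42.3% of the alpha sum and Itgb5 69.3% and 84.0% of the beta sum, while Lama5 takes 50.3% and 51.3% of the laminin alpha sum and Lamb2 81.5% and 87.3% of the laminin beta sum.

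Integrin adaptors were compared from a separate list, which also holds kinases and genes named after binding to an integrin. Of 30 adaptors 27 were compared, 8 were higher past 2-fold and 2 lower, with a median log2 ratio of 0.58, where 13.6% and 18.0% of all genes compared were. Ptk2b, a kinase related to focal adhesion kinase, had 1.90 and 28.5 FPKM. Actn1, a non-muscle actinin, had 9.60 and 77.5 FPKM, and Zyx, a sensor of tension at adhesions, 90.4 and 549 FPKM. Ilk, integrin-linked kinase, had 109 and 350.1 FPKM, a ratio of 3.21, beside Bcar1, Src, Tln1 and Parva, which were also higher past 2-fold. The 2 lower genes were Tln2, the talin of muscle, with 17.2 and 5.06 FPKM, and Itgb1bp3, a muscle gene, with 5.67 and 2.35 FPKM. The talins thus differed in opposite directions, since Tln1 had 45.7 and 103 FPKM. Vcl had 35.1 and 52.5 FPKM and Ptk2, focal adhesion kinase, 4.15 and 5.06 FPKM, both within 2-fold. Itgb1bp2 (melusin, a muscle protein that binds the beta tail), with 226 and 153 FPKM, and Tns1, with 234.7 and 125.9 FPKM, had ratios of 0.674 and 0.536, also within 2-fold.

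Other laminin receptors and basement membrane partners were taken from a second list. Of 17 compared, 6 were higher past 2-fold and 1 lower, with a median log2 ratio of 0.65, where 13.6% and 18.0% of all genes compared were. Of the 15 at 1 FPKM or more in both libraries 5 were higher and 0 lower, where 11.3% and 14.7% of all such genes were. Dag1, the dystroglycan that anchors dystrophin to laminin, had a ratio of 0.821, and Nid1, which links laminin to collagen IV, 34.0 and 31.3 FPKM. Hspg2 (perlecan) had 139.9 and 219 FPKM. The largest ratios were those of Fbln2 (48.1 and 249.7 FPKM), Col4a4 (0.827 and 2.05 FPKM), Sparc (579.6 and 1360 FPKM) and Col4a2 (166 and 386 FPKM), with Bcam and Col4a5 also past 2-fold. Ntn4, a netrin related to laminins, was the lower one, with 1.56 and 0.716 FPKM. Fbln1, Col15a1 and Nid2 had ratios of 0.647, 0.754 and 0.788.

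Ligands of the integrins came from a further list. Of 25 listed 15 were compared, 10 were higher past 2-fold and 2 lower, with a median log2 ratio of 1.30, where 13.6% and 18.0% of all genes compared were higher and lower. Thbs1 and Tnc reached 1 FPKM only in the csMed1-/- library. Of the 13 ligands at 1 FPKM or more in both 8 were higher and 2 lower, with a median of 1.16. Of all genes that passed this filter 11.3% were higher and 14.7% lower. Fn1, fibronectin, had 17.1 and 44.4 FPKM, a ratio of 2.59. Postn, periostin of activated fibroblasts, had 1.57 and 27.4 FPKM, Thbs1 0.543 and 3.79 FPKM, Mfge8 178 and 1107 FPKM, and Tnc, the tenascin bound by the Itga9 product, 0.528 and 2.09 FPKM. Vtn, vitronectin, was lower, with 44.8 and 16.5 FPKM. Vtn and Itgb5 thus differed in opposite directions, while 10 of the 15 ligands compared were higher past 2-fold. Tnxb, on 2 rows that were summed, had 4862 and 2098 FPKM. It was the highest of the ligands and above the cardiomyocyte marker Tnnt2, at 2280 and 1119 FPKM. Whether this estimate is sound was not tested.

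**Figure D4:**
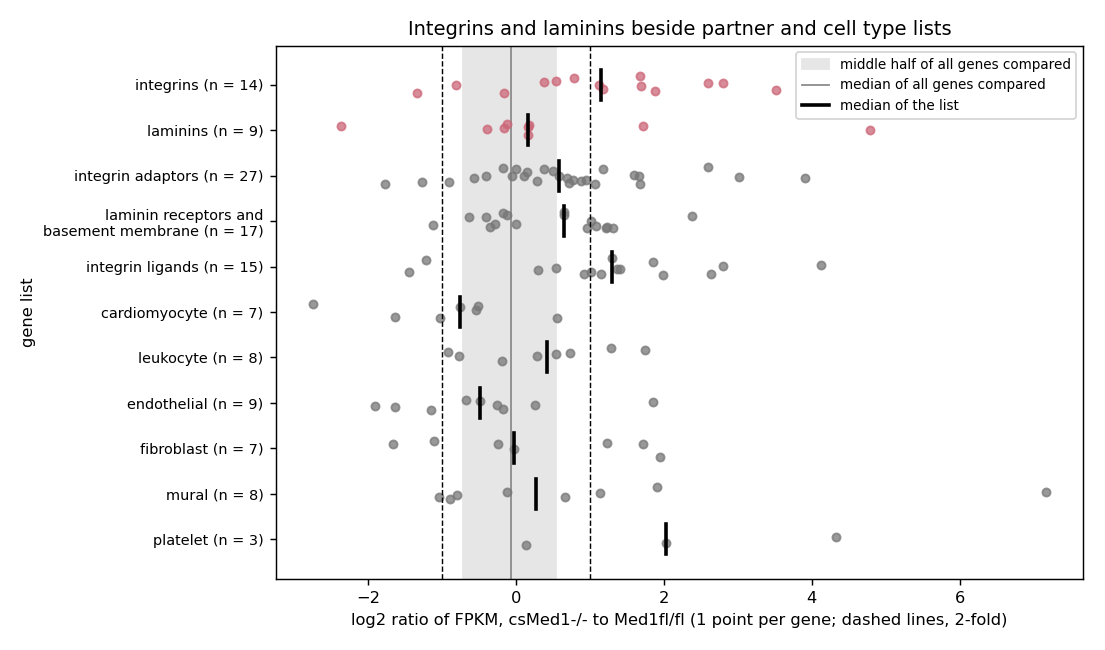
Log2 ratios of csMed1-/- to Med1fl/fl FPKM for the integrins and laminins compared (red points) and for lists of partner genes and cell type markers (grey points, 1 per gene), with the median of each list as a black bar and the range between the quartiles of all genes compared as a grey band. The medians of the integrins (1.15) and their ligands (1.30) lie to the right of the band and that of the cardiomyocyte markers (-0.75) to its left, while the median of the laminins (0.16) lies inside it. Genes that reached 1 FPKM only in the csMed1-/- library are included. With 1 FPKM required in both libraries the integrin median was 0.78 and the ligand median 1.16.

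Sums over the cell type lists are given beside these values, but they cannot tell cell number from RNA per cell. Of 7 cardiomyocyte markers compared 3 (Myl2, Tnnt2 and Tnni3) were lower past 2-fold and 0 higher, where 18.0% and 13.6% of all genes compared were. Actn2 alone of these 7 had the higher value in csMed1-/- heart, with 1286 and 1892 FPKM, and Myh6 is not listed. The summed level of the 8 listed markers was 53074 and 31566 FPKM. This includes Actc1, listed at 0 in Med1fl/fl and at 9189 FPKM in csMed1-/- heart. Mural cell markers summed to 722 and 1143 FPKM, with 3 of 8 (Tagln, Cnn1 and Cspg4) higher and 1 (Myh11) lower past 2-fold and none at 0. Cnn1 alone had 4.32 and 622 FPKM of these sums, and so differed by more than the sums did. Schwann cell markers summed to 4.74 and 2.46 FPKM with none at 0. Epithelial and mesothelial markers summed to 1.68 and 3.06 FPKM. The part of these cells in the integrin and laminin values was not tested.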

How the data were processed

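RNA of 5 hearts per genotype was pooled, enriched for polyadenylated RNA and sequenced as 1 directional library (single-end, 50 nt). Alignment by the authors was to mm10 with TopHat 2.0.8b, and the deposited FPKM come from Cufflinks and Cuffdiff 2.1.1 run on known genes, so alignment, counting and scaling preceded the files. Which library scaling was used, and whether counting used strand, is not given in the sources used here. 

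Rows sharing a symbol were summed (412 symbols, no member). The ratio of csMed1-/- to Med1fl/fl FPKM was taken without a pseudocount for genes not listed at 0 in either library whose larger value reached 1 FPKM, with a threshold of 2-fold. No test was made, since each genotype has 1 library. Counts and medians are given beside all genes compared. Read steps came from 2461 rows whose 2 values were at most 0.15 FPKM, where 64 shared the ratio of 1 read against 5 and 8 in windows beside it.

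The members and lists were chosen with earlier results of these data known. One member is counted in the totals but not reported here by name. The text names all others, from each partner list the 4 largest ratios in each direction and 10 set genes, and others where a count of 5 or fewer or a singled-out value needed the name. Coordinates came from GENCODE M21 and promoters from RefSeq (GRCm38.p6). The computation was tested on simulated data. Alternatives covered pseudocounts, filters, scalings, the threshold, rows and, added after seeing the data, GC content. Python 3.11.15 was used with numpy 2.4.6, pandas 2.3.3 and matplotlib 3.10.9.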

Additional observations from a re-analysis of the deposited data

How the results depend on the processing

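With no replicates and an unknown absolute depth, the precision of single ratios could not be given. No paired analysis was possible because each genotype has 1 library, and for the same reason no library could be left out. Of 10 higher and 2 lower members, 5 were higher when 1 FPKM was required in both libraries, and 3 higher and 0 lower when 10 FPKM was required in at least one. Without a filter 5 were lower, the integrin median log2 ratio moved from 1.15 to 0.040, and the laminin median turned from 0.16 to -0.053, with 38 members included. A 4-fold threshold left 4 higher and 1 lower members and 9.46% of all genes in place of 31.5%. A pseudocount of 1 FPKM left 1 lower member, with Itga6 at -0.84, Itga11 at 0.73 and Itgb3 at 0.82, and lowered Lamc3 from 4.79 to 2.11 and Itgbl1 from 3.52 to 1.89. Centring within 10 bins of transcript GC content, added after seeing the data, turned the laminin median to -0.090 and brought Itga3 to 0.86 and Itga11 to 0.89, inside 2-fold. In the 7 alternatives that can move a member across the threshold, 12 of 161 single values fell inside it and 0 reversed. Of the 12, 7 came from the 4-fold threshold, 3 from the pseudocount of 1 FPKM and 2 from centring within GC bins. The 161 include members already within 2-fold, which could not fall inside it. A pseudocount or a higher threshold cannot reverse a ratio. The filters leave each ratio as it was and only remove members, leaving 17, 12 and 20 of 23 where 1 FPKM in both libraries, 10 FPKM in at least one or a geometric mean of 1 FPKM was required. The 3 other scalings moved the median of all genes by at most 0.07 and no member across the threshold.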

Other observations

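The product of Itgb5 is known to pair with that of Itgav, yet the level of Itgb5 was 245 times that of Itgav in Med1fl/fl and 129 times in csMed1-/- heart. Both values are per length. Ttn, whose very long transcript is abundant in heart muscle, had 8.22 and 5.75 FPKM, and Ptprc, the common leukocyte antigen, had 0.0403 and 0.0147 FPKM beside Lyz2 at 115.7 and 68.0 FPKM.

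The longest coding transcript of Itgav is 43.5% G and C and that of Itgb5 57.0%. Over the 38 members above 0 in both libraries, mean log2 FPKM and this content had a Spearman's rho of 0.43, and over the 9174 genes compared that have a value, 0.33. The log2 ratio between libraries had a rho of 0.20 with it over these genes and of 0.04 over the 23 members compared. These are descriptions across genes of the same 2 libraries, not replicates, and the part of base composition in the levels was not tested.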
